A study of Mus musculus with 18 samples.

Results

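Skeletal muscle satellite cells are the stem cells of muscle fibres, and mouse back skin is underlain by a thin sheet of such muscle. They were described here in single cell 3' RNA libraries of back skin taken after surgery with or without a subcutaneous expander. A cell was counted as a satellite cell when it held at least 3 unique molecular identifiers (UMIs, counts of captured RNA molecules) of Pax7, Myf5, Myod1 and Chodl in sum, from at least 2 of these genes, and no UMI of Ptprc or Pecam1. Ptprc marks leukocytes and Pecam1 marks endothelial cells. By this rule 143 of 47251 kept cells were satellite cells, 129 in the control arm and 14 in the expanded arm.

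All mice had an incision near the tail and a tunnel made beneath the skin up to the neck. A hydrogel expander was placed at the neck in the expanded arm (EXP), and no expander in the control arm (CTRL). Skin was digested on day 1, 2 or 4, and live cells, negative for the dye DAPI, were sorted. The mice of an arm were pooled within a sequencing round, which gave 10 libraries: day 1 in rounds 1 and 2, day 2 in rounds 1 and 2, and day 4 in round 1, each for CTRL and EXP. The labels give no strain, sex or age. The pool is therefore the replicate, and spread between libraries measures pools and sequencing rounds together.

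In resting muscle a satellite cell lies between the fibre and its basal lamina and expresses Pax7, the transcription factor that marks the lineage. On injury it makes Myod1, divides, and either returns to rest or goes on to Myog and fusion into fibres. Myf5 and Myod1 are transcription factors of muscle determination, and Chodl encodes a lectin-like membrane protein.

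The 250 bases before the transcription start are shown for Pax7 and Chodl, which chose the cells, and for Isl1, a leading gene of the cells that the rule did not use. The sequences are from RefSeq on GRCm38.p6, 5′ to 3′ on the gene's strand, and capitals mark CANNTG, the E-box that muscle determination factors can bind. Pax7 lies at chr4:139832969-139833218 on the minus strand, Chodl at chr16:78930698-78930947 on the plus strand and Isl1 at chr13:116309689-116309938 on the minus strand.
Pax7: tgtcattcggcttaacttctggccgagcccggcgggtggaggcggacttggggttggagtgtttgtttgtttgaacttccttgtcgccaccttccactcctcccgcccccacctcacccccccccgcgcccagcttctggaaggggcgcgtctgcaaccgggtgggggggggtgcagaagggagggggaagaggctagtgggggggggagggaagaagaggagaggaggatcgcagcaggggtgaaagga
Chodl: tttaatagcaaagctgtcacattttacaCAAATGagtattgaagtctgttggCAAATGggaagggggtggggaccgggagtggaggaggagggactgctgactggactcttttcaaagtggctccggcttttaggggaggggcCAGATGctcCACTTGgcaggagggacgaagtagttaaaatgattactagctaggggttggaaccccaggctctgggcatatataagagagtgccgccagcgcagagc
Isl1: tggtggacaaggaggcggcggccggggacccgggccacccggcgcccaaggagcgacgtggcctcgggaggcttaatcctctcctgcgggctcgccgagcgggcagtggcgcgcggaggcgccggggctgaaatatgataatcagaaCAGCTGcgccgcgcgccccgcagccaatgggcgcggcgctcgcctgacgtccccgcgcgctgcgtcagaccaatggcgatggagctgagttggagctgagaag
CANNTG reads the same on both strands. The windows held 0 matches for Pax7, 4 for Chodl and 1 for Isl1. The Isl1 match was the form CAGCTG. Of the 20 leading genes described further on, 12 had a window in the table, and 6 of these held CANNTG and 1 held CAGCTG. Over all 32851 windows of this length, 66.2% held CANNTG and 13.0% held CAGCTG.

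The satellite cells of the CTRL libraries had a median of 4649 UMIs (1143 to 24415), and those of the EXP libraries had a median of 12386 (5718 to 34770). Fibroblast-gated cells, which held at least 10 UMIs of Col1a1, Col1a2, Dcn and Pdgfra from at least 3 of these genes, had library medians of 7541 to 15147 UMIs. Kept cells ran from 1927 to 8312 per library, and total UMIs from 17726739 to 75470722. Of all satellite cells, 1 was called a doublet. Hashtags, the labels of single mice, reached few of them and so could show few doublets. In the CTRL libraries of round 2 they gave 1 mouse to 0 of 22 satellite cells on day 1 and 10 of 71 on day 2. On CTRL day 4 it was 1 of 32. Of all kept cells of these libraries, 39.6%, 61.8% and 60.1% were given 1 mouse. No barcode of a satellite cell was a satellite cell in another library. Of all kept barcodes, 263 occurred in more than 1 library, and 4 satellite cell barcodes were among these. Only 4 libraries held at least 10 satellite cells: CTRL day 1 round 2 with 22, CTRL day 2 round 2 with 71, CTRL day 4 with 32 and EXP day 2 round 2 with 10. Gene levels below are given for these in CPM, the counts per 1000000 UMIs summed over the satellite cells of a library. Intervals are exact 95% intervals, Poisson for counts and Clopper-Pearson for shares, and cover counting error only.

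The rule genes are described without a test, since they chose the cells. Chodl was the gene found most often, in 93.0% of the 129 CTRL satellite cells, followed by Pax7 in 80.6%, Myf5 in 44.2% and Myod1 in 43.4%. Among fibroblast-gated cells of the 3 CTRL libraries, which were sequenced more deeply per cell, Chodl was found in 1.25% and Pax7 in 0.0109%. Pax7 stood at 272 CPM on day 1, 398 on day 2 and 293 on day 4 in CTRL, and at 350 in EXP day 2. Its highest of these 4 libraries was therefore CTRL day 2. Myod1 stood at 798 CPM on day 1, 424 on day 2, 483 on day 4 and 502 in EXP day 2, so its highest library was day 1. Myf5 stood at 224, 139 and 250 CPM on the CTRL days and 144 in EXP day 2. Chodl stood at 321, 736 and 451 CPM and at 540 in EXP day 2.

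Pax7 and Myod1 were found together in some cells and apart in others. Both are rule genes, so a cell without Myod1 had to reach 3 UMIs from the others, and 0 UMIs at this depth do not show that a gene was off. Of the 129 CTRL cells, 63 had Pax7 and no Myod1 UMI, 41 had both, 15 had Myod1 alone and 10 had neither. A Myod1 UMI was found in 15 of 22 cells of day 1 (68.2%, interval 45.1 to 86.1%), 29 of 71 of day 2 (40.8%, 29.3 to 53.2%) and 10 of 32 of day 4 (31.2%, 16.1 to 50.0%). After each cell was thinned to 2000 UMIs and shallower cells were left out, the shares were 9 of 19 (47.4%, 24.5 to 71.1%), 18 of 67 (26.9%, 16.8 to 39.1%) and 8 of 29 (27.6%, 12.7 to 47.2%), and the intervals overlapped. In EXP day 2, 7 of 10 cells had a Myod1 UMI before thinning and 3 of 10 after it. Myod1 ran up to 42 UMIs in 1 cell of CTRL day 2, while Pax7 never passed 8 UMIs in a CTRL cell. The plot of Pax7 and Myod1 by cell shows these counts.

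**Figure D1:**
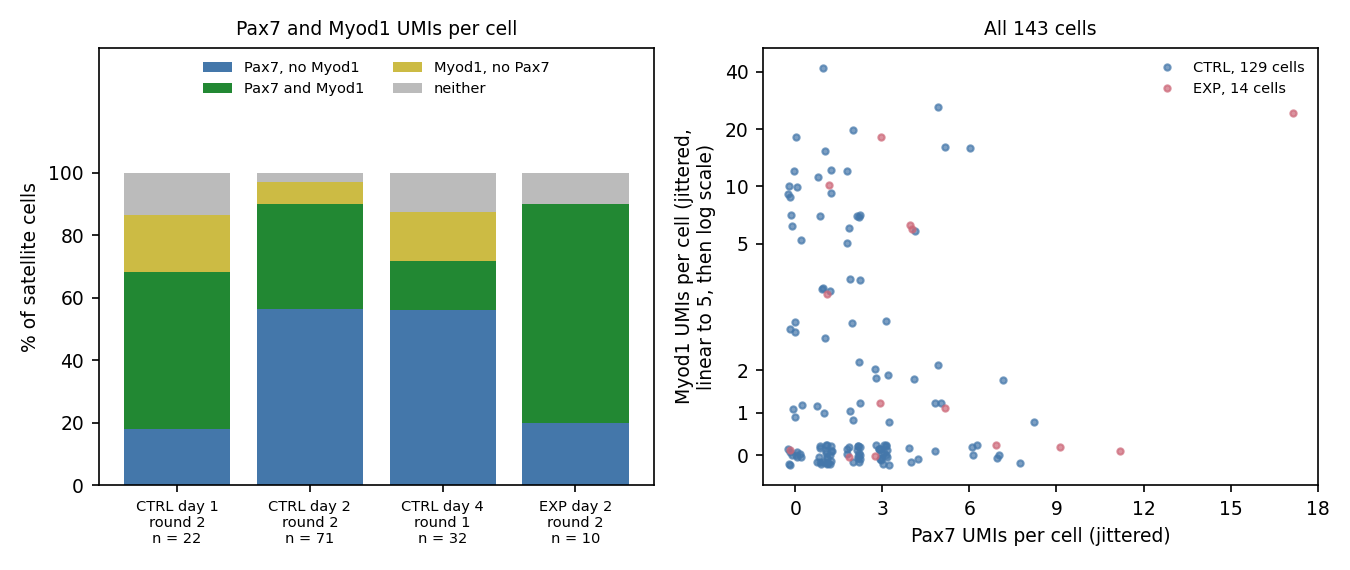
Left, percent of satellite cells (vertical axis) with UMIs of Pax7, Myod1, both or neither in the 4 libraries with at least 10 such cells. Right, Pax7 against Myod1 UMIs in each of the 143 cells, CTRL in blue and EXP in red, with jitter and a vertical axis that is linear to 5 and logarithmic above. CTRL day 1 has the largest share of cells with Myod1 among the CTRL libraries, and most cells without Myod1 carry Pax7.

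Cells at the edge of the rule differed in what else they held. Of the 15 satellite cells with exactly 3 UMIs of the rule genes, 13 also had a UMI of Cdh15, Des or Asb5, which the rule did not use. Just outside, all 7 cells with 2 UMIs from 2 genes had one. A further 120 cells held 3 or more UMIs from only 1 gene, Chodl in 114 of them, and 15 of the 120 had a UMI of Cdh15, Des or Asb5, while 62 were fibroblast-gated. Another 7 cells met the gene counts and were left out for Ptprc or Pecam1.

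Other genes known for muscle stem cells were high as well. Of 18 genes of satellite cell identity, 16 were at least 2-fold above the other kept cells in mean CPM over the 3 CTRL libraries with at least 10 satellite cells. Among all 5303 genes found in at least 10% of CTRL satellite cells, 11.7% were at least 2-fold higher and 1.23% at least 10-fold higher. Both counts come from the contrast that chose the cells and are descriptions. Des, the intermediate filament of muscle, was found in 79.1% of CTRL satellite cells and 4.18% of fibroblast-gated cells, at 535, 806 and 467 CPM on days 1, 2 and 4 against 20.1, 23.2 and 22.9 in the other cells. Cdh15, or M-cadherin, which joins the satellite cell to its fibre, stood at 87.5, 186 and 103 CPM. Its level in the other cells of those libraries was 0.203 CPM or less. Vcam1, an adhesion receptor, stood at 875, 872 and 760 CPM, and Ncam1, an adhesion molecule of nerve and muscle, at 311, 234 and 228 CPM. Sdc4, a heparan sulfate proteoglycan, was the most abundant of the list at 2908, 2374 and 1944 CPM. The exceptions were Cxcr4, a chemokine receptor that leukocytes also carry, at 1.31 times the other cells, and Sdc3 at 0.201 times.

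The genes that stood highest over the other cells included further muscle genes. The first 12 by ratio, outside the rule genes, were Iqsec3, Cdh15, Isl1, Chrdl2, Asb5, Calcr, Erfe, Ankrd1, Msc, Jsrp1, Neu2 and Ank1, and the first 20 also included Mrln, Defb25, Megf10, Pde1c, Gal and Chrnb1. Iqsec3, an exchange factor for ARF proteins, stood at 97.3, 77.3 and 70.6 CPM on days 1, 2 and 4. Isl1, a homeobox factor, stood at 97.3, 110 and 125 CPM and was found in 34.9% of the cells, against 0.0812% of other CTRL cells. Calcr, the calcitonin receptor, a known marker of resting satellite cells, was sparse at 9.73, 35.3 and 27.2 CPM, from 25 UMIs in all CTRL libraries. Asb5, a subunit of ubiquitin ligases in muscle, stood at 428, 316 and 565 CPM. Gal, the neuropeptide galanin, reached 642, 802 and 619 CPM, but 1 cell held 29.8% of its CTRL UMIs. Neu2, a sialidase, was the exception in day pattern: 87.5 and 110 CPM on days 1 and 2, and 0 on day 4. The plot of the first 12 leading genes shows satellite cells and other cells apart in every gene except Neu2 on day 4.

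**Figure D2:**
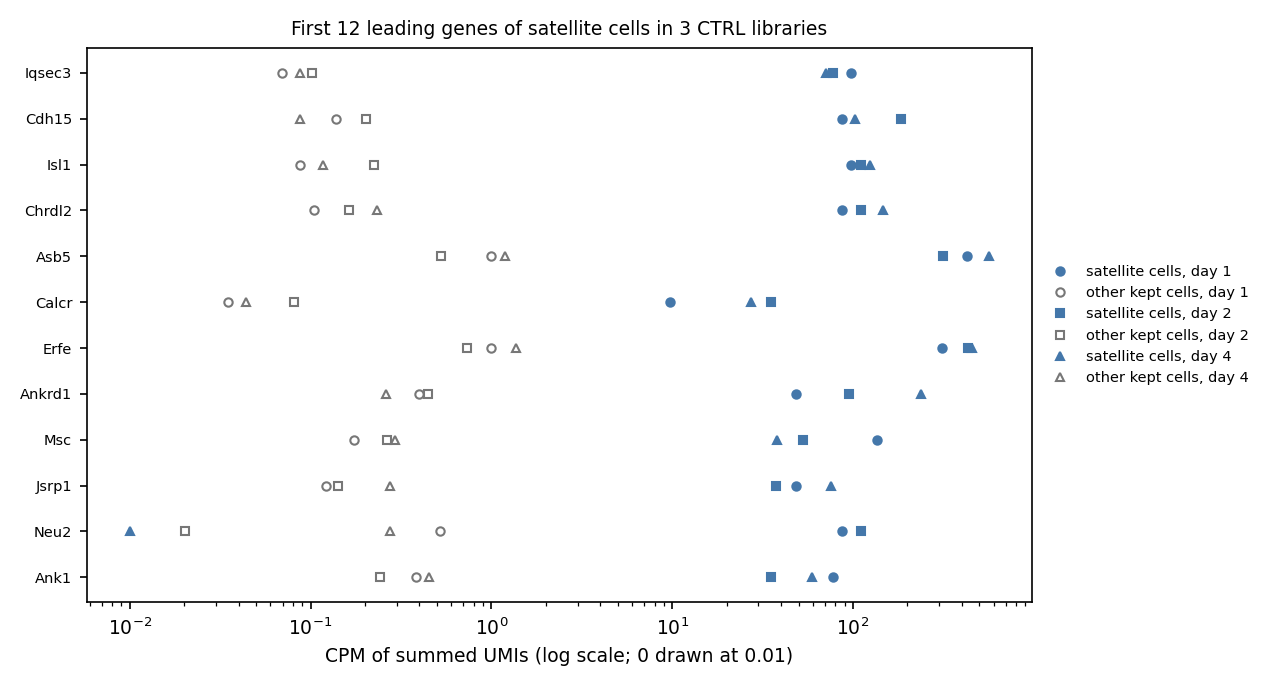
Level in CPM (log axis, 0 drawn at 0.01) of the first 12 leading genes in satellite cells (filled) and in the other kept cells (open) of the CTRL libraries of day 1 round 2, day 2 round 2 and day 4. Filled symbols lie to the right of the open ones in every row but for Neu2 on day 4, where satellite cells had no UMI.

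Summed markers of other cell types were below the other kept cells in each of the 3 CTRL libraries. The rule itself removes cells with Ptprc or Pecam1, and so immune and endothelial cells. Of the 5 endothelial markers, Emcn, Kdr and Egfl7 were at 0 in the CTRL satellite cells, and the list summed to 0, 2.21 and 5.43 CPM on days 1, 2 and 4. Of the 6 pericyte and smooth muscle markers, Rgs5 and Myh11 were at 0 and the list summed to 87.5, 210 and 353 CPM, of which Acta2 gave 29.2, 139 and 299, the last above the 195 CPM of the other cells of day 4. Sox10 of the Schwann list and S100a8 of the immune list were at 0, and these lists summed to 28.7 CPM or less and 158 CPM or less. Krt1 was at 0, and the keratinocyte list summed to 38.9, 323 and 16.3 CPM. The melanocyte list summed to 0, 68.5 and 10.9 CPM, and all 25 Dct UMIs came from 1 cell.

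Fibroblast genes were present and uneven. The 7 fibroblast markers summed to 11156, 3176 and 16571 CPM on days 1, 2 and 4, against 55420, 26041 and 55293 in the other cells. Col1a1, the collagen I chain, stood at 2869, 292 and 5056 CPM, but 1 cell held 92.2% of its day 1 UMIs and another 65.9% of its day 4 UMIs. In all, 13 of the 143 satellite cells also met the UMI counts of the fibroblast gate, and 12 of them had a UMI of Cdh15, Des or Asb5. They numbered 1 of 22, 3 of 71 and 6 of 32 in the CTRL libraries of days 1, 2 and 4 and 1 of 10 in EXP day 2. Without them Col1a1 stood at 263, 134 and 414 CPM on the CTRL days and 82.6 in EXP day 2. Sparc, a matrix protein, went from 2976, 1365 and 4741 CPM to 755, 1057 and 1212. Pax7 stood at 297, 443 and 353 CPM without them, and Cdh15 at 103, 201 and 115. Whether these cells are doublets or carry free RNA was not tested.

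Genes of rest and Notch signalling were in part above the other cells. Of the 16 genes, 7 were at least 2-fold higher, where 11.7% of all genes found in at least 10% of the cells were, in the contrast that chose the cells. Notch3, a Notch receptor, was found in 54.3% of cells at 165, 179 and 152 CPM on days 1, 2 and 4. Heyl, a Notch target, stood at 19.5, 37.6 and 10.9 CPM, and Hes1, another, was lower than in the other cells at 97.3, 113 and 76.0 CPM. Col5a3, a collagen V chain, stood at 302, 338 and 255 CPM. Tenm4, a teneurin, stood at 87.5, 128 and 65.2 CPM, and Spry1, an inhibitor of growth factor signalling, at 77.8, 102 and 97.8 CPM.

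Genes of activation and growth were also present. Of 16 genes, 8 were at least 2-fold above the other cells, where 11.7% of all genes found in at least 10% of the cells were. Runx1, a transcription factor of activated satellite cells, was found in 93.0% of CTRL cells at 1138, 1100 and 885 CPM. Myc, the growth regulator, stood at 350, 378 and 500 CPM, and Odc1, the first enzyme of polyamine synthesis, at 1002, 601 and 657 CPM. Nop58, a factor of ribosome assembly, stood at 545, 616 and 750 CPM.

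Genes of differentiation were sparse or at 0, apart from Cdkn1a and Mef2a. Of 15 genes of commitment and early differentiation in the files, Mymk, Mymx, Myh3, Myh8 and Actc1 had no UMI in the 129 CTRL cells. Mymk and Mymx encode the fusion proteins of myoblasts, and the others encode developmental muscle myosins and cardiac actin. The other 10 had UMIs, and 4 of the 15 were at least 2-fold above the other cells, namely Myog, Chrna1, Chrng and Tnnt1, with 15 UMIs or fewer each. None of these 4 was found in 10% of the cells. The share of 11.7% over genes found that often is therefore no background for them. Myog, the factor of terminal differentiation, had 15 UMIs, all in 1 cell of CTRL day 2. Among the 16 genes of mature fibres, Myh2, Myh4, Mybpc2 and Mb were at 0, and the list summed to 58.4, 88.4 and 43.5 CPM on days 1, 2 and 4. Acta1, skeletal actin, had 7 UMIs in 4 cells. None of the fibre genes was found in 10% of the cells, and none had more than 8 UMIs in CTRL, so their ratios to the other cells, where the list summed to 25.3 CPM or less, rest on single UMIs. Cdkn1a, a cell cycle inhibitor in the commitment list that many cell types make, stood at 934, 672 and 701 CPM.

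The chemokine Cxcl1, which attracts neutrophils, was the most abundant gene of the cytokine list. It stood at 9230 CPM on day 1 (interval 8652 to 9836), 14748 on day 2 (14396 to 15106) and 13877 on day 4 (13344 to 14425), against 564, 677 and 737 CPM in the other cells and 282, 629 and 465 in fibroblast-gated cells. It was found in 83.7% of CTRL satellite cells, with a median of 29.0 UMIs per cell on day 1, 72.0 on day 2 and 48.0 on day 4, and in these 3 libraries no cell held more than 19.2% of a library's UMIs. The pair of CTRL day 2 round 1 cells held 638 UMIs, or 26501 CPM, of which 1 cell held 628. The pair of CTRL day 1 round 1 cells, 1 of which was called a doublet, held 6. Cxcl1 was therefore high in 4 of the 5 CTRL libraries. In EXP it stood at 9546 CPM on day 2 round 2, 1516 in the 3 cells of day 4, and 1 UMI in the only cell of day 2 round 1. Cxcl2, a related chemokine, stood at 2597, 5875 and 3954 CPM on the CTRL days, against 1766, 2800 and 2340 in the other cells and 129, 138 and 193 in fibroblast-gated cells. Ccl2 and Ccl7, which attract monocytes, stood at 584, 1029 and 722 CPM and at 798, 497 and 255 CPM, below the other cells on average. Il33 and Tslp were at 0.

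The share of satellite cells ranged widely among libraries of 1 arm. In CTRL it was 0.0343% (2 of 5828) on day 1 round 1, 0.265% (22 of 8312) on day 1 round 2, 0.0915% (2 of 2185) on day 2 round 1, 1.21% (71 of 5844) on day 2 round 2 and 0.426% (32 of 7507) on day 4. In EXP it was 0 of 2954 on day 1 round 1, which allows up to 0.102% at 3 counts (exact upper bound 0.125%), and 0 of 5878 on day 1 round 2, which allows up to 0.0510% at 3 counts (exact upper bound 0.0627%). It was 0.0295% (1 of 3393) on day 2 round 1, 0.519% (10 of 1927) on day 2 round 2 and 0.0876% (3 of 3423) on day 4. Round 2 was the higher round on both days in CTRL, and day and round cannot be told apart for day 4, which has round 1 only. The plot of shares by library shows the counts and intervals.

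**Figure D3:**
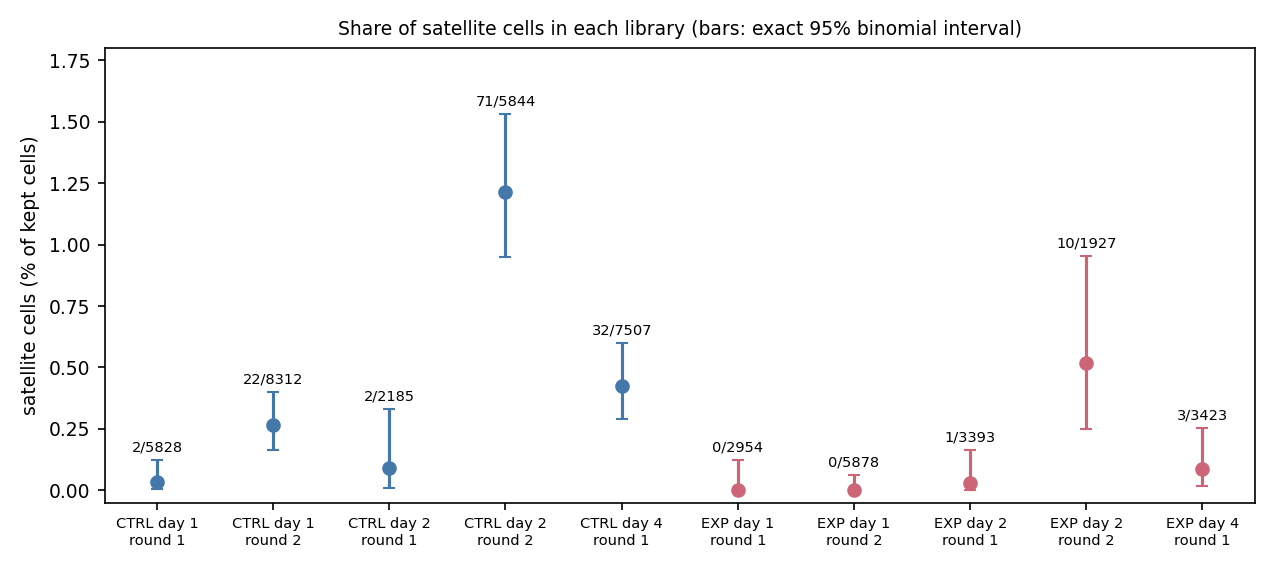
Satellite cells as percent of kept cells in each of the 10 libraries, CTRL in blue and EXP in red, with exact 95% binomial intervals and the counts above. The CTRL day 2 round 2 library is highest at 71 of 5844 cells, and the EXP library of each day and round lies below its CTRL partner.

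The mean share was 0.406% ± 0.477 (SD, n = 5) in CTRL and 0.127% ± 0.222 (SD, n = 5) in EXP. EXP was lower in 5 of 5 pairs of the same day and round, but the arms overlapped, and the difference of -0.279 percentage points did not pass an exact two-sided permutation test (p = 0.278). Paired by day and round, the exact permutation p was 0.0625, the smallest that 5 pairs allow. Without the EXP day 2 round 2 library the difference was -0.377 and the exact permutation p was 0.0317, and without the CTRL day 2 round 2 library they were -0.077 and 0.556. Fewer living satellite cells, fewer cells released by digestion and more leukocytes among the kept cells would each lower the share, and cannot be told apart by it. Of kept cells without a Ptprc UMI, satellite cells were 0.583% ± 0.716 in CTRL and 0.226% ± 0.391 in EXP (SD, n = 5 each; exact permutation p = 0.405). Fibroblast-gated cells were also a smaller share in EXP (21.3% ± 9.36, SD, n = 5) than in CTRL (46.1% ± 11.1, SD, n = 5; exact permutation p = 0.0159). Per 100 fibroblast-gated cells, satellite cells numbered 1.14 ± 1.62 in CTRL and 0.800 ± 1.40 in EXP (SD, n = 5 each; exact permutation p = 0.516), and EXP was lower in 5 of 5 pairs. Without the CTRL day 2 round 2 library the direction turned, to 0.362 more in EXP (exact permutation p = 0.984).

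Few genes could be called between days. With edgeR's quasi-likelihood test over the 5 CTRL libraries, 0 of 2786 genes passed an adjusted p of 0.05 between day 2 and day 1, which is 0% of the genes tested in either direction. At an unadjusted p under 0.05 there were 86, and DESeq2 also called 0. Between day 4 and day 1, 1 gene was higher (0.0359% of the genes tested) and 0 lower. This was Hist1h1b, a linker histone of dividing cells, with a log2 change of 9.11 ± 1.66 (SE; edgeR adjusted p = 0.0481). Its 78 UMIs on day 4 came from 2 of 32 cells, and it had 0 UMIs in the other CTRL libraries. DESeq2 called 0 genes there, and so did edgeR with the replicate block, which adds the sequencing round. Day 4 had 1 CTRL library, which was assumed to vary like those of days 1 and 2, with 2 residual degrees of freedom. The round 1 libraries of days 1 and 2 brought 2 cells each to this test. Without the CTRL day 1 round 2 library the test called 35 genes for day 2 and 32 for day 4, without CTRL day 2 round 2 it called 17 and 10, and without CTRL day 1 round 1 it called 5 and 1. Without CTRL day 2 round 1 it called 0 for both. Each of these left a day with 1 library, under the same assumption. Counts of this size were also simulated, with an assumed spread that was the same for every gene and library. In them the test recovered 4% of genes changed 4-fold between day 2 and day 1, and 2% between day 4 and day 1. The spread was not estimated from these cells, so these shares do not give the power of the test in the data.

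The libraries with at least 10 satellite cells are therefore compared as single libraries, with no test, in genes that had at least 20 UMIs in the pair. Between day 2 and day 1, 10.7% of 3516 genes were at least 2-fold higher and 7.25% at least 2-fold lower. The 16 immediate early and heat shock genes respond within minutes to stress and also to tissue digestion. Of these, 4 were at least 2-fold higher on day 2 than on day 1 and none were lower. They were Jun and the heat shock genes Hspa1a (585 against 175 CPM), Hspa1b (157 against 68.1) and Hspb1 (550 against 272). In the CTRL pairs of round 1, Hspa1a stood at 541 CPM on day 1 and 291 on day 2, and Hspa1b at 507 and 0. These 2 genes had the opposite order there, while Hspb1 had the same order, at 135 and 415 CPM. Fos did not pass 2-fold between these days. The list's median log2 difference was 0.64, against -0.01 over all genes and 0.47 for the same list in fibroblast-gated cells. Between day 4 and day 1, 6 of the 16 were at least 2-fold higher and none lower, where 8.93% of 2094 genes were higher and 7.21% lower. The median was 0.81, against -0.03 over all genes and 0.20 in fibroblast-gated cells. Between day 4 and day 2, 2 of the 16 were at least 2-fold higher and 1 lower, where 5.63% of 3874 genes were higher and 8.29% lower. Fos stood at 1809, 3583 and 5931 CPM on days 1, 2 and 4, and in the CTRL pairs of round 1 at 473 CPM on day 1 and 5441 on day 2. Day 1 was lower than day 2 in both rounds. The round 1 pairs hold only 2 cells each, however, and all 14 Fos UMIs of that day 1 pair came from 1 cell. Jun stood at 1021, 2854 and 2156 CPM on days 1, 2 and 4, and at 938, 2030 and 2110 CPM without the cells that met the fibroblast gate. In the CTRL pairs of round 1 it stood at 946 CPM on day 1 and 914 on day 2, so only round 2 had more Jun on day 2. In the edgeR test Fos had an adjusted p of 0.675 for day 2 and 0.559 for day 4.

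Other genes that stood apart were chosen by the bound of the counting interval nearest to no difference. Nppc, C-type natriuretic peptide, had 0 UMIs in 22 cells on day 1. It had 81 in 18 of 71 cells on day 2 and 43 in 13 of 32 cells on day 4 (178.9 and 233.5 CPM). With day 1 set at 3 counts, these were 6.13-fold and 8.00-fold higher on the CPM scale (lower counting bounds 4.87 and 6.23). The pair of CTRL day 1 round 1 cells had 3 Nppc UMIs among 29602 in all, while the CTRL day 2 round 1 pair had none. The round 1 pairs therefore had the opposite order. Of the CTRL Nppc UMIs, 1 cell held 27.6%. Mt2, a metallothionein, stood at 4639 CPM on day 1 and 2032 on day 2, a ratio of 0.438 (0.392 to 0.490), and at 1792 on day 4. The round 1 pairs had the same order, 4696 CPM on day 1 and 2243 on day 2. In each pair, however, 1 of the 2 cells met the UMI counts of the fibroblast gate. That cell held 24004 of 29602 UMIs on day 1 and 14262 of 24075 on day 2. The pairs therefore do not repeat the difference in satellite cells alone. Fibroblast-gated cells also had less Mt2 on days 2 and 4 than on day 1. Sox9, a transcription factor, stood at 642, 239 and 174 CPM on days 1, 2 and 4. Rgcc, a cell cycle regulator, stood at 788, 128 and 114 CPM. In the round 1 pairs Sox9 stood at 237 CPM on day 1 and 0 on day 2, while Rgcc had the opposite order, 67.6 CPM on day 1 and 540 on day 2. Day 4 differed from day 1 also in Igfbp4, a binding protein of insulin-like growth factors, at 320 against 29.2 CPM, where 1 cell held 42.1% of the CTRL UMIs, and the round 1 pair of day 1 had 67.6 CPM. Ankrd1, a mechanosensitive muscle gene, stood at 48.6, 95 and 239 CPM on days 1, 2 and 4, and at 0 to 0.082 CPM in fibroblast-gated cells. The plot of 8 genes by library sets satellite and fibroblast-gated cells side by side.

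**Figure D4:**
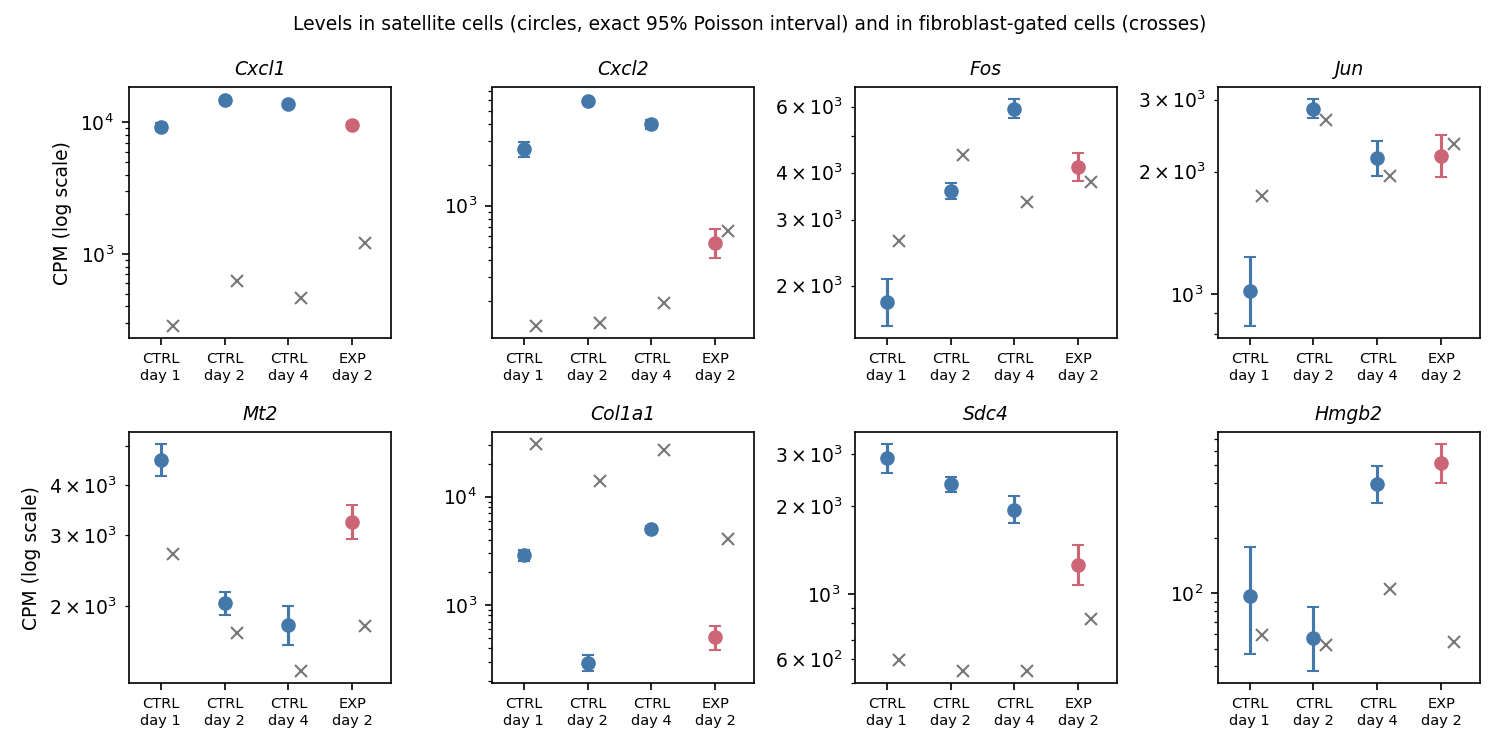
Level in CPM (log axes) of 8 genes in satellite cells (circles with exact 95% Poisson intervals, CTRL in blue, EXP in red) and in fibroblast-gated cells (crosses) of CTRL day 1 round 2, CTRL day 2 round 2, CTRL day 4 and EXP day 2 round 2. Cxcl1 in satellite cells is near or above 9230 in all 4 libraries, while Cxcl2 is 5875 in CTRL day 2 and 532 in EXP day 2.

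Expanded and control satellite cells could be set side by side in the day 2 round 2 libraries, with 10 and 71 cells. None of 17 identity genes with enough UMIs passed 2-fold, where 6.39% of 3661 genes were at least 2-fold higher in EXP and 12.8% at least 2-fold lower. The largest difference by its interval was Cxcl2, at 532 CPM in EXP and 5875 in CTRL, a ratio of 0.0906 (interval 0.0704 to 0.115). It was found in 4 of 10 EXP cells and 45 of 71 CTRL cells, and 1 cell held 75.7% of the EXP UMIs and another 22.3% of the CTRL UMIs. In fibroblast-gated cells the order was the opposite, with 648 CPM in EXP and 138 in CTRL. The 3 EXP cells of day 4 held 1 Cxcl2 UMI. The EXP library also had lower Gal, at 137 against 802 CPM, and lower Itih5, a hyaluronan-binding protein, at 83.6 against 417 CPM. Gal reached 11205 CPM in the only EXP cell of day 2 round 1, so EXP libraries did not share its direction. Itih5 was also lower in that EXP cell, at 48.5 against 208 CPM in CTRL day 2 round 1. On day 4 the order of Itih5 was the opposite, with 607 CPM in the 3 EXP cells and 152 in CTRL. Hmgb2, a chromatin protein of dividing cells, was higher, at 517 against 57.4 CPM, but at 155 CPM without the 1 EXP cell that met the fibroblast gate. Of the 7 cytokine genes with enough UMIs, 3 were at least 2-fold lower in EXP and none higher.

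Across all 8 libraries with a satellite cell, and with day in the model, 0 of 1267 genes passed edgeR's quasi-likelihood test between EXP and CTRL, 0% in either direction. At an unadjusted p under 0.05 there were 76, and DESeq2 called 2, both lower in EXP. Cxcl2 had a log2 difference of -4.53 ± 1.19 (SE; edgeR adjusted p = 0.610), and Erfe, the hormone erythroferrone, of -2.03 ± 0.60 (SE; edgeR adjusted p = 0.657). Erfe stood at 311, 431 and 456 CPM on the CTRL days and at 160 in EXP day 2 and 21.7 in EXP day 4. In counts of this size, simulated with the same assumed spread, the test recovered 30% of genes changed 4-fold, which does not give its power in the data.

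Cell cycle UMIs were counted in satellite cells thinned to the same total. After thinning to 2000 UMIs, cells with at least 2 UMIs over 20 cell cycle genes numbered 3 of 19 on CTRL day 1 (15.8%, interval 3.38 to 39.6%), 3 of 67 on day 2 (4.48%, 0.933 to 12.5%), 4 of 29 on day 4 (13.8%, 3.89 to 31.7%) and 2 of 10 in EXP day 2 (20%, 2.52 to 55.6%). The intervals overlapped. With at least 1 UMI the shares were 47.4%, 29.9%, 37.9% and 40%. Without thinning the numbers were 5 of 22, 31 of 71, 9 of 32 and 7 of 10. Fibroblast-gated cells had 4.25%, 4.69%, 6.36% and 4.27% in the same libraries after thinning, with at least 2 UMIs. The satellite cell value was above this in 3 of the 4 libraries, but its interval held the fibroblast-gated value in each library. Schwann-gated cells had 12.5%, 9.22%, 6.80% and 12.15% on the same count. Mki67, the proliferation marker, had 13 UMIs in the CTRL satellite cells, from 2 cells of day 4, and 13 in EXP day 2, from 1 of 10 cells. That EXP cell held 34770 UMIs, 141 of them of the cell cycle genes. It was also the 1 EXP day 2 cell that met the UMI counts of the fibroblast gate. Top2a, a topoisomerase of dividing cells, stood at 68.1, 2.21 and 125 CPM on the CTRL days. Pcna, the replication clamp, was the most abundant of the list at 302, 99.4 and 163 CPM, and was found in 46.5% of CTRL cells. The plot of cell cycle shares gives the values with and without thinning.

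**Figure D5:**
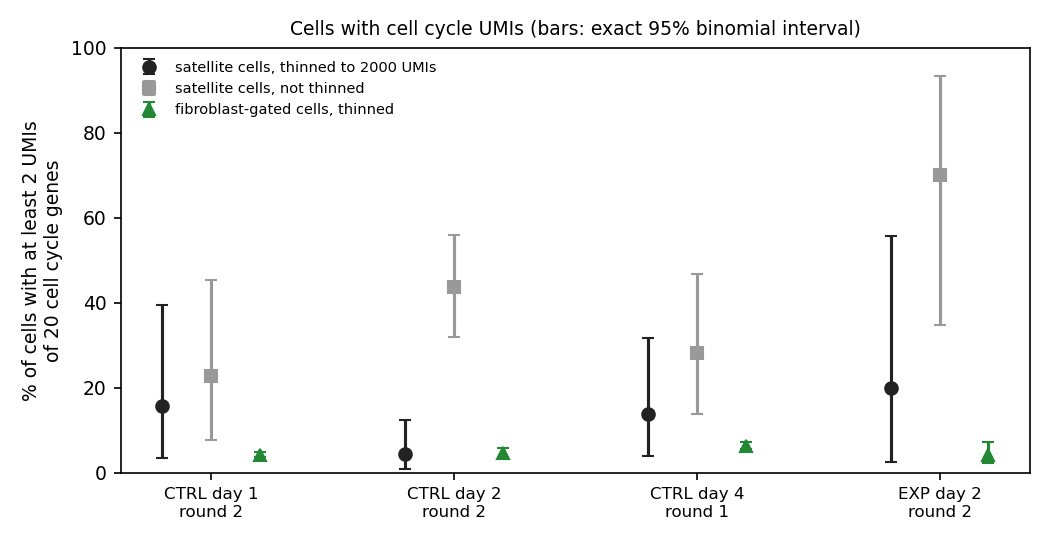
Percent of cells with at least 2 UMIs of 20 cell cycle genes in CTRL day 1 round 2, CTRL day 2 round 2, CTRL day 4 and EXP day 2 round 2, with exact 95% binomial intervals, for satellite cells thinned to 2000 UMIs (circles) and not thinned (squares) and for thinned fibroblast-gated cells (triangles). The thinned satellite cell values run from 4.48 to 20%, and their intervals overlap.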

How the data were processed

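The deposited files are UMI counts per gene and barcode that the authors made with Cell Ranger (version 6.1.2) and the genome build mm10, per the submitters' processing notes. Kept barcodes had 200 or more genes, 500 or more UMIs, and no more than 10% of UMIs from mitochondrial genes. Doublets were called with Scrublet in scanpy 1.11.5 and by hashtags (at least 20 UMIs and 5 times the library median). The cells, the 17 gene lists and the rules for named genes were chosen with earlier results of these data known. Leading genes were the 20 highest by ratio to the other cells among genes in at least 10% of CTRL satellite cells, and some genes that these rules name are not reported here. Differences between single libraries needed at least 20 UMIs in the pair and 25% of cells of the higher library, and up to 12 genes per direction were ranked by the bound of the counting interval nearest to no difference. These rules, and the use of means over the 3 CTRL libraries with at least 10 satellite cells, were set after seeing the data. Shares were compared by exact permutation tests (scipy 1.17.1). UMIs summed per library were tested with edgeR 4.0.16 (filterByExpr, TMM, quasi-likelihood, Benjamini-Hochberg over all genes), with DESeq2 1.42.0 as an alternative, and checked on simulated counts. A minimum of 10 satellite cells per library left no residual degrees of freedom, so the minimum was lowered to 2, and to 1 between arms, after seeing the data. Day and round pair the CTRL and EXP libraries, per the labels. The titles of the CTRL day 1 round 2 hashing and RNA samples are exchanged against their descriptions, and the descriptions were used. Both titles and descriptions give the same arm, day and round.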

Additional observations from a re-analysis of the deposited data

Results flagged for a closer look

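The EXP day 2 round 2 library stood far from the other EXP libraries in its share of satellite cells, at 0.519%. Per 100 fibroblast-gated cells, the day 2 round 2 libraries stood far above the other libraries of their arm, at 3.98 in CTRL and 3.27 in EXP. Chance sets about 1 in 20 such groups apart.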

How the results depend on the processing

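The share of satellite cells was lower in EXP under every alternative run, namely the limits of 2 or 4 UMIs of the rule genes, mitochondrial limits of 5 or 20%, cells without Ptprc as the denominator, doublets or cells with fibroblast UMIs left out, thinning, pairing and each library left out. It crossed the threshold only without the EXP day 2 round 2 library (-0.377, exact permutation p = 0.0317). Over the 10 left-out libraries it ran from -0.377 to -0.077. Per 100 fibroblast-gated cells the difference ran from -0.962 to 0.362, the last without CTRL day 2 round 2, and the cause was not tested. With the replicate block, which permutes the arm within day and round, the share difference was -0.279 and its exact permutation p was 0.0625, and the block left edgeR's calls at 0 for day 2 and for the arms and took the day 4 call to 0.

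Calls between day 2 and day 1 went from 0 to 8 without the filter on low counts, 4 without doublets and 1 after thinning, and ran from 0 to 35 with a library left out (35 without CTRL day 1 round 2, 17 without CTRL day 2 round 2, 5 without CTRL day 1 round 1). Calls between day 4 and day 1 went from 1 to 8 without the filter and to 0 with DESeq2, without doublets, with at least 4 UMIs of the rule genes and with both arms in the fit. With a library left out they ran from 0 (CTRL day 2 round 1) to 32 (CTRL day 1 round 2), with 10 without CTRL day 2 round 2. Between arms there were 2 calls with DESeq2, 20 without the filter and 1 after thinning, and 0 with any library left out. A fit of libraries with at least 10 satellite cells could not be made, since each day then had 1 CTRL library.

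Counted from 1 UMI, thinned cells with cell cycle UMIs were 47.4% on CTRL day 1, 29.9% on day 2 and 37.9% on day 4. Without thinning they were 43.7% on CTRL day 2 and 70.0% in EXP day 2.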
